A study of Mus musculus with 8 samples.

Results

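The genes of the sperm flagellum and its axoneme were described in areas of the adult mouse testis rich in Sertoli cells, taken by laser capture after di-(2-ethylhexyl) phthalate (DEHP), a plasticiser, or after vehicle. They were chosen by name: genes whose name on the array begins with Dnahc, Dnaic, Dnali, Tekt, Odf or Spag followed by a number (the Odf3 and Odf2 relatives included), together with Akap3, Akap4, Smcp, Ccdc19, Fscn3, Spata18 and Spata3. This gave 39 genes with 73 probes, out of 27673 genes with 41174 probes on the array. Cabs1 and Spem1 were also sought by name and were not analysed here. All 39 genes had at least 1 probe that was tested, and 55 of their probes were tested in all. The sperm associated antigens (Spag) are a group in name alone, since the name also covers proteins of the nuclear envelope, the mitotic spindle and the epididymis.

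The treated group was 4 male C57BL/6J mice gavaged daily for 21 days with DEHP dissolved in corn oil, at 200 mg/kg/day, and the control group was 4 male C57BL/6J mice gavaged with corn oil alone on the same schedule. All were 21 weeks old according to the labels. On the arrays, each DEHP mouse met 1 vehicle mouse, on 2 arrays between which the Cy5 and Cy3 dyes were exchanged. Pairs are numbered by the DEHP mouse, so that DEHP mice 1, 2, 3 and 4 met vehicle mice 2, 3, 4 and 1.

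A sperm tail is built around the axoneme, a ring of doublet microtubules around a central pair. Dynein arms on the doublets pull neighbouring doublets past each other and so bend the tail. Tektins run along the inside of the doublets, outer dense fibres stiffen the tail from outside the axoneme, the mitochondrial sheath wraps the midpiece, and the fibrous sheath of the principal piece holds the kinase anchors Akap3 and Akap4. These parts are made by germ cells: many of the genes are switched on in late spermatocytes and round spermatids, and the tail is completed during spermatid elongation. Sertoli cells support these germ cells and build no flagellum.

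The labels call the captured tissue the intermediate layer of the tubule's epithelium, while the labels' extraction protocol speaks of Leydig cells, the steroid-making cells between tubules. Of the Sertoli cell markers, 23 of 26 were tested, and Gata4, Kitl and Dmrt1 were not well above background. Of the Leydig markers, 8 of 12 were tested, and Cyp11a1, Hsd3b6, Hsd17b3 and Lhcgr were not well above background. Germ cell markers from spermatocytes onward were present in nearly full number. Tested were 19 of 20 genes of spermatocytes, 22 of 23 of round spermatids and 18 of 19 of elongating spermatids. The remaining round spermatid gene, Sun5, was tested among the flagellum genes under its array name Spag4l. Of the 19 elongating spermatid genes, 18 were on the array. Of the spermatogonia markers, 8 of 13 were tested. Of these 13, 11 were on the array, and Nanos2, Nanos3 and Ret were not well above background. In bulk samples such as these, fewer cells of a type and less RNA per cell cannot be told apart. The flagellum genes themselves were well detected, with 35 of 39 well above background in all 16 channels of the 8 arrays. Dnahc10 was well above background in 4 DEHP channels and 2 vehicle channels, and Spag11 in 1 DEHP channel and 4 vehicle channels, so that little can be said of either.

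The probes below are those of the genes on which the account turns, as the array's design gives them, 5′ to 3′ and with positions in the mouse build mm7. The first 4 are single probes: Ccdc19 and Spata3 kept 1 direction in all 4 pairs, and Tekt2 and Odf2 differed most between the dye orientations.
Ccdc19 (chr1:172515908-172515967, plus strand): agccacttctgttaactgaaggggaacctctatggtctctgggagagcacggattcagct
Spata3 (chr1:85922731-85922790, plus strand): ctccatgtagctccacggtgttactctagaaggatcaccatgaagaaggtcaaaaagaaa
Tekt2 (chr4:125766833-125766892, minus strand): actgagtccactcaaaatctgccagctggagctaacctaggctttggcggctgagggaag
Odf2 (chr2:29929770-29929829, plus strand): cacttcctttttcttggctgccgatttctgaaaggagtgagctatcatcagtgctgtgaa
The next 4 are shown because they form overlapping pairs within a gene, in which the capitals mark the bases that both probes share, 40 for Spag4 and 45 for Spag9.
Spag4, first probe (chr2:155809390-155810047, plus strand): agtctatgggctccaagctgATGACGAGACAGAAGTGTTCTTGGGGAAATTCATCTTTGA
Spag4, second probe (chr2:155810008-155810067, plus strand): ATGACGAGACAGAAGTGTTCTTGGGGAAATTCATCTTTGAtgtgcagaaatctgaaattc
Spag9, first probe (chr11:94223253-94223312, plus strand): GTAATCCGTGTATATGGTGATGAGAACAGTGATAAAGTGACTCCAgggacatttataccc
Spag9, second probe (chr11:94223238-94223297, plus strand): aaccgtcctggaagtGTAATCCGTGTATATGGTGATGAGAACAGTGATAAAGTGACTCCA

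None of the flagellum and axoneme genes differed past the threshold between DEHP and vehicle mice. In limma, fitted over the 4 pairs with Benjamini-Hochberg adjustment over all 22975 tested probes, 0 of 39 genes had an adjusted p under 0.05, against 0% of the 16971 genes tested, and the smallest adjusted p was 0.903. At an unadjusted p under 0.05 stood 3 of the 39 genes, beside 4.8% of all genes tested. Of these, 1 of the 39 genes was higher, against 2.47% of all genes, and 2 of the 39 were lower, against 2.33% of all genes. The higher gene was Spata3 and the lower ones were Ccdc19 and Tekt2. No flagellum gene had a mean difference over 1.5-fold (0 of 39). The 95% confidence interval of the difference lay within 2-fold for 38 of the 39 genes and within 1.5-fold for 34.

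The genes had a median log2 ratio of DEHP over vehicle of -0.029, beside -7.8e-05 over all genes tested. The pair medians were -0.14, -0.030, -0.071 and 0.028 for pairs 1, 2, 3 and 4, with an SD over pairs of 0.069, so that the median lay within the spread between pairs. Of the 39 genes, 14 had a mean above 0, beside 49.9% of all genes tested. That count turned with the normalization: with each array's log ratios centred on their median in place of loess, 27 of 39 were above 0 and their median was 0.051, beside a median of 0.019 and a share above 0 of 57.0% over all genes. Only Spata3 was above 0 in all 4 pairs, beside 6.69% of all genes, and 4 genes were below 0 in all 4 pairs (Ccdc19, Akap3, Spag16 and Dnahc9), beside 6.89% of all genes.

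**Figure D1:**
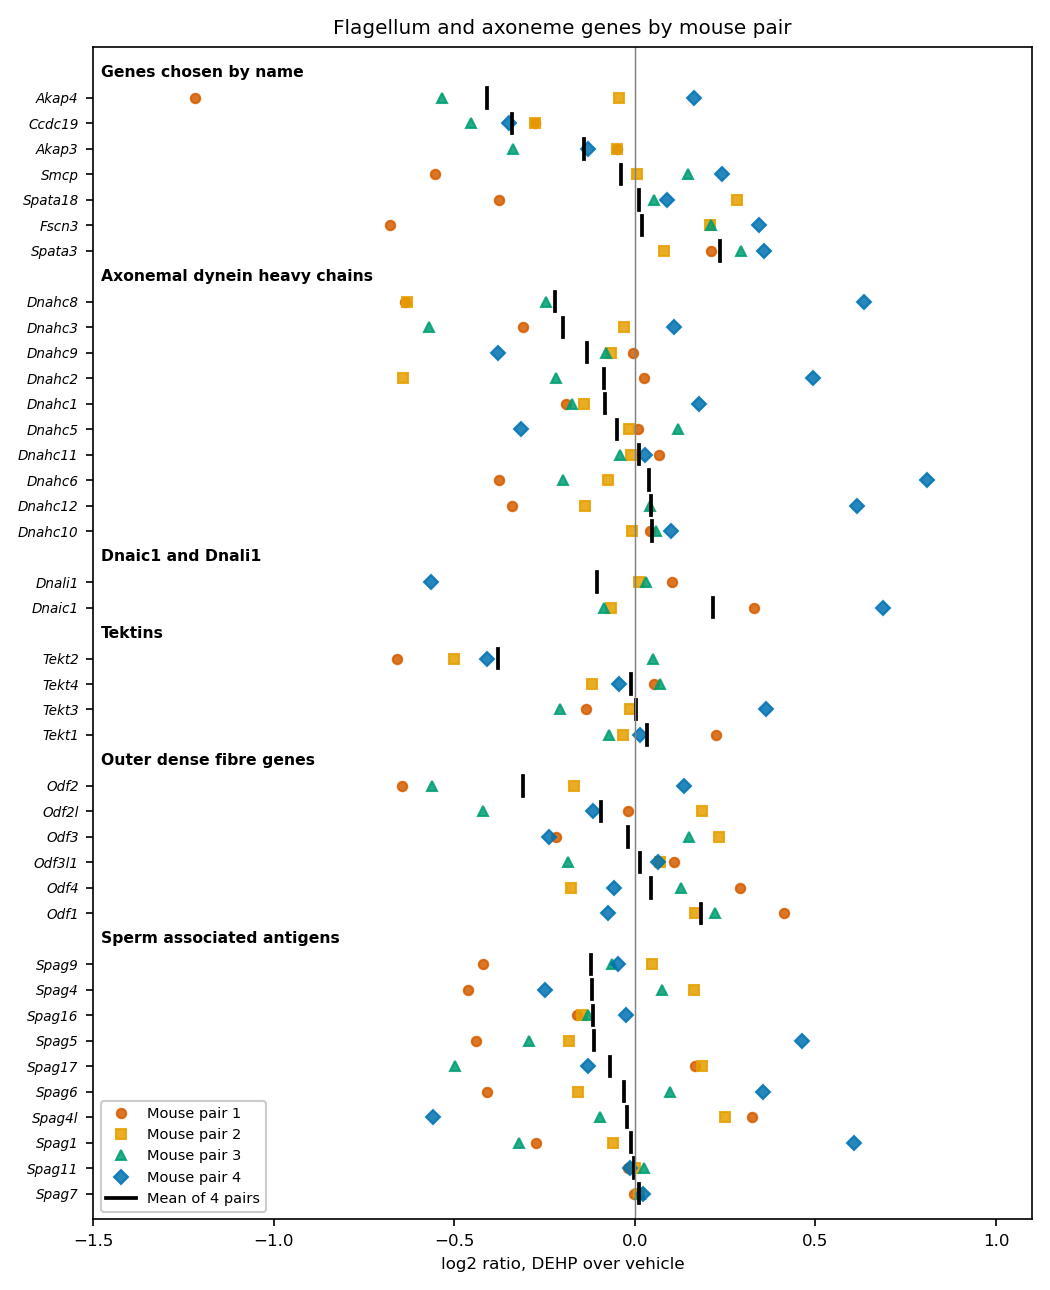
Log2 ratio of DEHP over vehicle (x axis) for each of the 39 genes (rows, by family), with 1 point per mouse pair (mean of its 2 dye-swapped arrays) and a bar at the mean of the 4 pairs. Means lie between -0.41 (Akap4) and 0.24 (Spata3), and for most genes the 4 pairs fall on both sides of 0.

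Ccdc19, whose current symbol is Cfap45, codes for a protein lining the inside of the axoneme's doublet microtubules. Its level, as log2 normalised intensity averaged over the 2 arrays of each mouse, was 15.84, 15.59, 15.63 and 15.87 in DEHP mice 1 to 4, against 16.22, 16.12, 15.87 and 16.09 in vehicle mice 1 to 4. The groups did not overlap, though the highest DEHP mouse and the lowest vehicle mouse were nearly level. It was the only one of the 39 genes with all DEHP mice below all vehicle mice, beside 1.04% of all genes, and 0 of 39 had all DEHP mice above all vehicle mice, beside 0.725%. The log2 ratios of the 4 pairs were -0.28, -0.28, -0.45 and -0.35, a mean of -0.34 ± 0.084 (SD, n = 4 pairs), which limma gave an unadjusted p of 0.00115 and an adjusted p of 0.903. The size differed between the dye orientations, which also lay on separate slides: the mean was -0.59 on the 4 arrays with DEHP in Cy5 and -0.093 on the 4 with DEHP in Cy3.

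Spata3, a gene named for its link with spermatogenesis, had levels of 11.38, 11.17, 11.15 and 11.36 in DEHP mice 1 to 4, against 11.01, 11.17, 11.09 and 10.85 in vehicle mice 1 to 4. Vehicle mouse 2 lay above the lowest DEHP mouse, and the other vehicle mice lay below all DEHP mice. The pair ratios were 0.21, 0.080, 0.29 and 0.36, with a mean of 0.24 ± 0.12 (SD, n = 4 pairs; limma, unadjusted p = 0.0117, adjusted p = 0.903). Both dye orientations gave nearly the same mean, 0.23 where DEHP was labelled with Cy5 and 0.24 where it was labelled with Cy3. Across the other settings tried, the mean ranged from 0.20 to 0.34 and never fell below 0.

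The fibrous sheath anchors Akap4 and Akap3 hold protein kinase A in the principal piece of the tail, and Akap4 is the main protein of that sheath. Akap4 had the most negative mean of the 39 genes and one of the widest spreads. Its levels were 11.85, 11.80, 11.82 and 12.40 in DEHP mice 1 to 4, against 12.24, 13.06, 11.85 and 12.36 in vehicle mice 1 to 4. The groups overlapped, with vehicle mouse 2 above every other mouse. The pair ratios were -1.22, -0.045, -0.53 and 0.16, a mean of -0.41 ± 0.61 (SD, n = 4 pairs; limma, unadjusted p = 0.152, adjusted p = 0.903), with a 95% interval from -1.03 to 0.21. Akap3 was below 0 in each pair, at -0.050, -0.050, -0.34 and -0.13, with a mean of -0.14 ± 0.14 (limma, adjusted p = 0.903). The levels of Akap3 nonetheless overlapped, from 7.79 to 8.29 in DEHP mice and from 7.92 to 8.34 in vehicle mice.

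Smcp codes for the cysteine-rich protein of the sperm mitochondrial capsule, Fscn3 for a testis fascin that bundles actin, and Spata18 for a protein of mitochondrial quality control. All 3 had a mean close to 0 and were low in pair 1 alone. Fscn3 was at -0.68 in pair 1 and at 0.21, 0.21 and 0.34 in pairs 2, 3 and 4, a mean of 0.021 ± 0.47 (SD, n = 4 pairs). Smcp was at -0.55 in pair 1 and at 0.0069, 0.15 and 0.24 in the others, a mean of -0.039 ± 0.36. Spata18 was at -0.38 in pair 1 and at 0.28, 0.054 and 0.088 in the others, a mean of 0.012 ± 0.28. The level of Fscn3 was 15.66 in vehicle mouse 2 and between 15.06 and 15.09 in vehicle mice 1, 3 and 4, while the DEHP mice lay at 14.99, 15.28, 15.27 and 15.43. Without pair 1, Fscn3 averaged 0.25, with an unadjusted p of 0.0135 and an adjusted p of 0.999 in limma.

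Vehicle mouse 2, the partner in pair 1, had the highest level of all 8 mice in 12 of the 39 genes, or 30.8%, beside 14.8% of all genes tested. Among the 7 genes chosen by name, 6 were below 0 in pair 1, against 48.8% of all genes. Over these 7 genes the mean level was 13.00 in vehicle mouse 2, the highest of the 8 mice, and 12.58 in DEHP mouse 1, the lowest.

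Axonemal dynein heavy chains are the motor subunits of the dynein arms, and 10 of them were tested (Dnahc1, Dnahc2, Dnahc3, Dnahc5, Dnahc6, Dnahc8, Dnahc9, Dnahc10, Dnahc11 and Dnahc12, now written Dnah). None reached an unadjusted p under 0.05 in limma (0 higher and 0 lower of 10), and their median log2 ratio was -0.067 with 4 of 10 above 0. Their means ran from -0.22 (Dnahc8) to 0.048 (Dnahc10). The pairs differed in how many heavy chains lay below 0. In pair 1, 6 of 10 were below 0, beside 48.8% of all genes. In pair 2, 10 of 10 heavy chains were below 0, beside 51% of all genes, and in pair 3, 7 of 10 were, beside 50.3% of all genes. In pair 4 only 2 of 10 were, beside 49.5% of all genes. The pair medians were -0.098, -0.071, -0.13 and 0.14 for pairs 1, 2, 3 and 4.

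Dnahc8, an outer arm heavy chain of sperm, was one of the heavy chains above 0 in pair 4. Its levels were 14.30, 13.79, 14.20 and 14.60 in DEHP mice 1 to 4, against 13.97, 14.94, 14.42 and 14.45 in vehicle mice 1 to 4. The ranges overlapped broadly, and the mice of pair 4 were the highest DEHP mouse and the lowest vehicle mouse. The pair ratios were -0.64, -0.63, -0.25 and 0.63, a mean of -0.22 ± 0.60 (SD, n = 4 pairs; limma, adjusted p = 0.926). A second Dnahc8 probe was far dimmer, with a mean level of 7.35 in DEHP mice, against 14.22 for the first. It gave smaller ratios of -0.080, -0.040, -0.11 and 0.14, with a mean of -0.022. Dnahc6, an inner arm heavy chain, reached 0.81 in pair 4 and was at -0.38, -0.075 and -0.20 in pairs 1, 2 and 3. Dnahc12, also of the inner arm, was at 0.62 in pair 4 and at -0.34, -0.14 and 0.043 in the others.

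The opposite was seen for Dnahc5 and Dnahc9, which are known as outer arm heavy chains of motile cilia. Dnahc9 was at -0.38 in pair 4 and at -0.0056, -0.067 and -0.081 in the other pairs, a mean of -0.13 ± 0.17 (limma, unadjusted p = 0.139, adjusted p = 0.903). Dnahc5 was at -0.32 in pair 4 and between -0.016 and 0.12 in the others. A second, dimmer probe of each gene gave 0.018 for Dnahc5 and 0.014 for Dnahc9 in pair 4. The Dnahc5 one was well above background in only 4 DEHP and 4 vehicle channels, and the Dnahc9 one in 8 and 6. Their mean levels in DEHP mice were 6.98 and 7.31, so that little can be said from ratios near 0. The means of these probes were 0.011 and 0.0029. Dnahc3, an inner arm heavy chain, had a mean of -0.20 ± 0.30 (limma, unadjusted p = 0.167, adjusted p = 0.903) with pair ratios of -0.31, -0.030, -0.57 and 0.11. Dnahc1, Dnahc2, Dnahc10 and Dnahc11 had means between -0.085 and 0.048. Vehicle mouse 1, the partner in pair 4, had the lowest level of the 8 mice in 4 of the 10 heavy chains, beside 22.8% of all genes, and DEHP mouse 4 had the highest level in 3 of 10, beside 10.4% of all genes.

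Dnaic1, an intermediate chain of the outer arm, and Dnali1, a light intermediate chain of the inner arm, stood on opposite sides of 0 in pair 4, at 0.69 and -0.56. Over the 4 pairs Dnaic1 had ratios of 0.33, -0.066, -0.087 and 0.69, a mean of 0.22 ± 0.37 (limma, adjusted p = 0.907). Dnali1 had ratios of 0.10, 0.012, 0.031 and -0.56, a mean of -0.10 ± 0.31 (limma, adjusted p = 0.933). Neither gene kept 1 sign over the pairs.

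The count at an unadjusted p depended on pair 4. Without it, 8 of the 39 genes were lower at an unadjusted p under 0.05, against 4.94% of all genes, and 2 were higher, against 4.57% of all genes, while limma called none of them (smallest adjusted p = 0.555). The lower genes were Ccdc19, Dnahc1, Dnahc6, Dnahc8, Odf2, Spag1, Spag5 and Spag16, and the higher ones were Odf1 and Spata3. Dnahc8 then averaged -0.50, Odf2 averaged -0.46 and Spag5 averaged -0.31. The share of all genes was higher without that pair as well.

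Tektins form filaments inside the doublets, and Tekt2 is needed for intact inner arms in mouse sperm. Tekt2 had levels of 13.82, 13.86, 14.55 and 14.25 in DEHP mice 1 to 4, against 14.66, 14.48, 14.36 and 14.50 in vehicle mice 1 to 4. DEHP mouse 3 lay within the vehicle range and the other 3 DEHP mice lay below it. The pair ratios were -0.66, -0.50, 0.051 and -0.41, with a mean of -0.38 ± 0.30 (SD, n = 4 pairs; limma, unadjusted p = 0.0289, adjusted p = 0.903). The difference was found in 1 dye orientation: the mean was -0.80 where DEHP was labelled with Cy5 and 0.039 where it was labelled with Cy3. The brightest Tekt1 probe turned the other way, with 0.24 in the Cy5 orientation and -0.17 in the Cy3 orientation. It averaged 0.034 ± 0.13 (limma, adjusted p = 0.956). A second Tekt1 probe had the reverse dye pattern, with -0.17 in the Cy5 orientation and 0.43 in the Cy3 orientation. That probe was above 0 in each pair and averaged 0.13 ± 0.074 (limma, unadjusted p = 0.0462, adjusted p = 0.903). Tekt3 and Tekt4 averaged 0.0026 ± 0.25 and -0.010 ± 0.088.

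The outer dense fibre genes had a median of -0.0021 with 3 of 6 above 0, and 0 of 6 reached an unadjusted p under 0.05 in limma. Odf2, which codes for a main fibre protein that also sits at centrosomes, had levels of 17.36, 17.42, 17.40 and 17.75 in DEHP mice 1 to 4, against 17.62, 18.01, 17.59 and 17.96 in vehicle mice 1 to 4. Of the DEHP mice, only mouse 4 overlapped the vehicle mice. The pair ratios were -0.64, -0.17, -0.56 and 0.14, a mean of -0.31 ± 0.36 (SD, n = 4 pairs; limma, unadjusted p = 0.0874, adjusted p = 0.903). On the 4 arrays with DEHP in Cy3 the mean was -0.76, and on the 4 with DEHP in Cy5 it was 0.14. A second Odf2 probe gave -0.13.

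Odf1, a fibre protein that also helps to hold head and tail together, had the highest mean of its family, 0.18 ± 0.20 (SD, n = 4 pairs; limma, unadjusted p = 0.0919, adjusted p = 0.903). Its levels were 10.03, 9.99, 9.93 and 9.92 in DEHP mice 1 to 4, against 9.99, 9.62, 9.82 and 9.71 in vehicle mice 1 to 4. The groups overlapped through vehicle mouse 1 alone, and the pair ratios were 0.41, 0.17, 0.22 and -0.075. The dye orientations gave 0.18 (DEHP labelled with Cy5) and 0.19 (labelled with Cy3), and a second Odf1 probe also gave 0.18, with pair ratios of 0.55, 0.033, 0.092 and 0.049. Odf2l, Odf3, Odf3l1 and Odf4 had means between -0.093 and 0.045.

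Of the sperm associated antigens, 1 of 10 had a mean above 0 (Spag7, at 0.012), and the family's median was -0.049, within the SD of its pair medians of 0.10. With median centring in place of loess, Spag1, Spag4, Spag4l, Spag5, Spag6, Spag16 and Spag17 turned to above 0. Spag6, Spag16 and Spag17 belong to the central pair apparatus, which governs the beat. Spag16 was below 0 in each pair, at -0.16, -0.15, -0.13 and -0.024, a mean of -0.11 ± 0.062 (SD, n = 4 pairs; limma, unadjusted p = 0.0535, adjusted p = 0.903). Its levels overlapped, with 14.31, 14.12, 14.19 and 14.33 in DEHP mice 1 to 4, against 14.36, 14.47, 14.27 and 14.32 in vehicle mice 1 to 4. A second Spag16 probe gave -0.068. Spag17 averaged -0.069 ± 0.32, and Spag6, whose tested probe carries an accession now assigned to Spag6l, averaged -0.029 ± 0.33.

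The remaining antigens have other roles. Spag1 takes part in the assembly of dynein arms and averaged -0.012 ± 0.43, with 0.61 in pair 4. Spag4 and Spag4l (now Sun5) are SUN domain proteins of the spermatid's nuclear envelope, and averaged -0.12 ± 0.29 and -0.021 ± 0.40. Spag5, a protein of the mitotic spindle, averaged -0.11 ± 0.40, with 0.46 in pair 4. Spag9, a scaffold of JNK signalling, had the most negative mean of the family, -0.12 ± 0.21 (limma, unadjusted p = 0.233, adjusted p = 0.908). Spag11 (now Spag11a), a defensin-like gene of the epididymis, and Spag7 were dim and lay at -0.0022 and 0.012.

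Each pair was read in both dye orientations, which allows the same mice to be compared with the dyes exchanged. Of the 39 genes, 20 had means of opposite sign in the 2 orientations, beside 43% of all genes tested. Among the 35 genes well above background in all 16 channels, the median absolute difference between the orientation means was 0.16, beside 0.11 over all such genes. DEHP lay in Cy5 on slide 1 and in Cy3 on slide 2, so dye and slide cannot be told apart. Averaging the orientations cancels an equal and opposite dye effect, and what part dye or slide had in Ccdc19, Tekt2 and Odf2 was not tested. Between the 2 arrays of a pair, the ratios of the 39 genes correlated with r = 0.71, 0.44, 0.43 and 0.69 for pairs 1, 2, 3 and 4, beside 0.72, 0.54, 0.68 and 0.71 over all genes tested. These correlations are across genes that share the same 2 RNA extracts, and genes are not independent replicates.

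**Figure D2:**
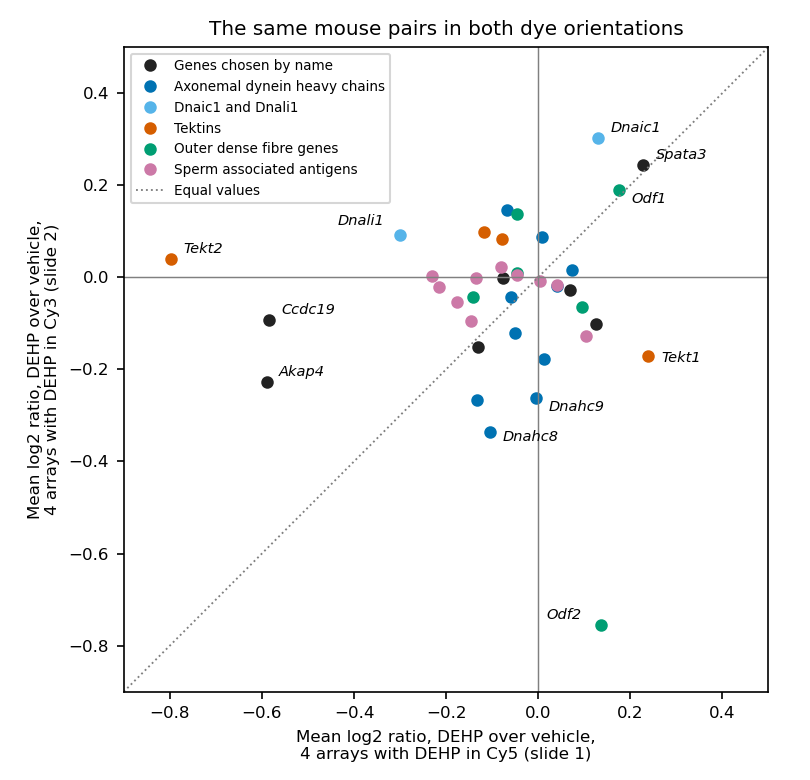
Mean log2 ratio of DEHP over vehicle on the 4 arrays with DEHP in Cy5 (x axis) and on the 4 arrays with DEHP in Cy3 (y axis) for each of the 39 genes, coloured by family, with a dotted line of equal values. Spata3 and Odf1 lie near the line, while Tekt2 (-0.80 and 0.039), Ccdc19 (-0.59 and -0.093) and Odf2 (0.14 and -0.76) lie far from it.

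The spread between pairs sets how large a difference could be seen. Among genes well above background in all 16 channels, the median SD over the 4 pairs was 0.28 for 35 flagellum genes, beside 0.19 for 14005 genes. Their median absolute log2 ratio was 0.083, beside 0.071. In 4 of the 39 genes (Dnahc1, Dnali1, Fscn3 and Odf3l1) 1 pair stood apart from the other 3 by Dixon's test, beside 6.1% of all genes.

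Where a gene had more than 1 tested probe, the probes mostly gave small ratios that did not always share a sign. In 12 genes with 16 further tested probes, 7 further probes, in 5 genes, had the opposite sign to the brightest one. These genes were Dnahc1, Dnahc5, Dnahc9, Dnahc12 and Spag9. Apart from those of Dnahc12, the probes of opposite sign were dim, with mean levels of 6.98 to 7.33 in DEHP mice. The median absolute difference over the 16 further probes was 0.11. The overlapping Spag4 probes shown above both gave -0.12. The overlapping Spag9 probes gave 0.017 and 0.063, while the brightest Spag9 probe gave -0.12. Another, placed at chr11:94153697-94153756, gave -0.38 (limma, unadjusted p = 0.0140, adjusted p = 0.903). Spag9 therefore had no single direction over its probes, though the overlapping ones above 0 were dim and shared 45 bases. The further Dnahc12 probes, which the design places on chromosome 1 and not on chromosome 14 with the brightest, gave -0.055 and -0.071, against 0.045 for the brightest. They are included in the count of opposite signs above, although their position differs from that of the brightest.

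Other genes of the same structures, not covered by the names above, were grouped into lists, whose counts at an unadjusted p under 0.05 stand beside 2.47% higher and 2.33% lower of all genes tested. Among 20 genes of the fibrous sheath, outer dense fibres and sperm energy supply, the median was -0.045, with 1 higher and 1 lower at an unadjusted p under 0.05. These were Gpx4, the selenium peroxidase of the midpiece capsule (0.17 ± 0.11, unadjusted p = 0.0321), and Adcy10, the soluble adenylyl cyclase of sperm (-0.14 ± 0.042, unadjusted p = 0.0185), with limma's adjusted p of 0.903 for both. Among 35 genes of radial spokes, the central pair and other axonemal parts, the median was -0.020, with 1 higher and 2 lower at an unadjusted p under 0.05. The lower ones were Gas8, a subunit of the nexin-dynein regulatory complex (-0.17 ± 0.060, unadjusted p = 0.0133), and Ttll3, a tubulin glycylase (-0.57 ± 0.39, unadjusted p = 0.0158), again with limma's adjusted p of 0.903.

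Of 13 dynein light chain genes, 9 had a mean above 0 and the median was 0.096, with pair medians of 0.069, 0.17, 0.16 and -0.0070 and none past an unadjusted p of 0.05 (0 higher and 0 lower in limma). The smallest unadjusted p belonged to Dnal1, of the outer arm (0.15 ± 0.13, unadjusted p = 0.0576), and Dynlrb1, a roadblock light chain (0.12 ± 0.097, unadjusted p = 0.0845). Among 35 genes of intraflagellar transport, the carriage of parts along the growing axoneme, the median was 0.012, with 0 higher and 1 lower at an unadjusted p under 0.05 (Ift57, -0.19 ± 0.15). Among 18 genes of the manchette and basal body the median was -0.055, with 1 higher and 1 lower at an unadjusted p under 0.05: Tbcb at 0.17 ± 0.12 and Cep131 at -0.23 ± 0.20. Among 9 transcription regulators of cilium genes it was 0.030, with 0 higher and 0 lower.

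**Figure D3:**
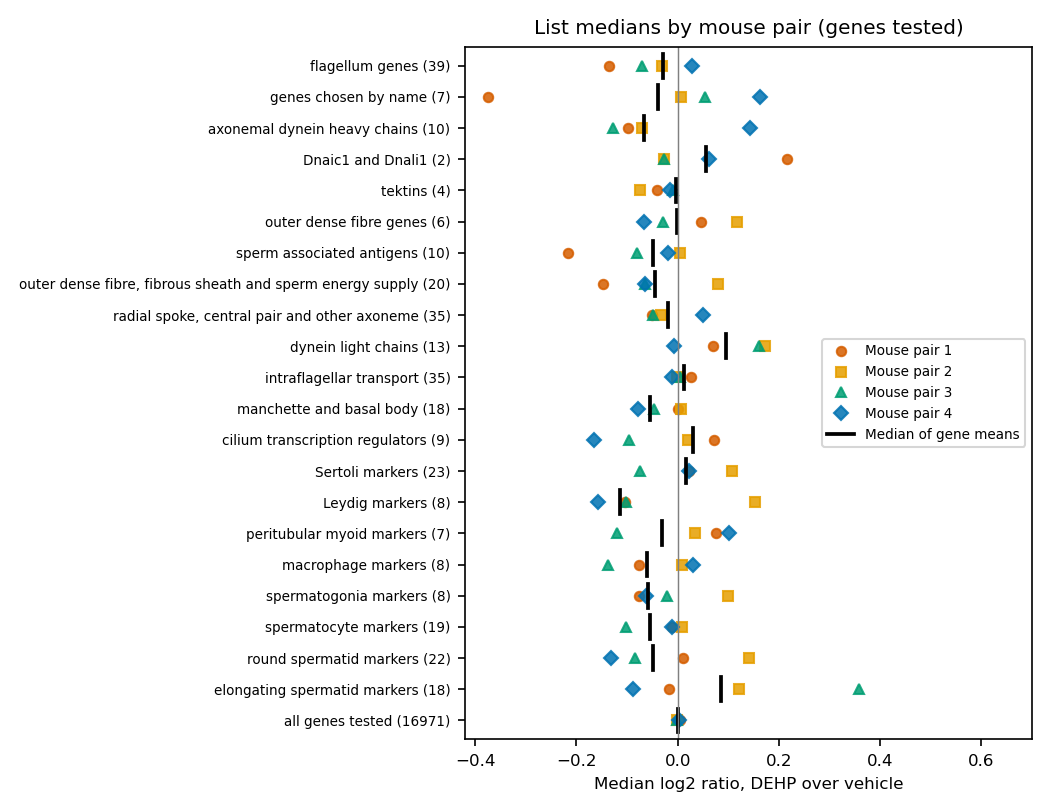
Median log2 ratio of DEHP over vehicle (x axis) of the flagellum genes, their families, further lists of flagellum and cilium genes and cell type markers (rows, number of genes tested in brackets), with points for the median in each mouse pair and a bar for the median of the genes' means. The flagellum genes lie at -0.14, -0.030, -0.071 and 0.028 in pairs 1, 2, 3 and 4, and most other lists likewise have pairs on both sides of 0.

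The markers of the germ cells that make the flagellum had pair medians on both sides of 0. Round spermatid markers had a median of -0.048, with pair medians of 0.011, 0.14, -0.085 and -0.13, and spermatocyte markers a median of -0.054, with pair medians of -0.010, 0.0075, -0.10 and -0.012. Elongating spermatid markers had a median of 0.086, with 0.36 in pair 3 and -0.016, 0.12 and -0.089 in pairs 1, 2 and 4. Their mean level over 18 genes ranged from 13.45 to 13.67 in DEHP mice and from 13.35 to 13.55 in vehicle mice, while the mean level of the 39 flagellum genes ranged from 11.54 to 11.71 in DEHP mice and from 11.61 to 11.72 in vehicle mice. Sertoli markers had a median of 0.016 and a mean level of 9.58 to 9.78 in DEHP mice, against 9.55 to 9.76 in vehicle mice. In pair 4, where most dynein heavy chains were above 0, the medians of round and elongating spermatid markers were below 0, and their part in the flagellum genes' values was not tested.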

How the data were processed

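The authors hybridised amplified RNA (2 rounds, from single laser-capture caps of independent mice, per the labels' protocols) to 8 Agilent arrays with 2 colours. Each spot's mean foreground and median background intensity were deposited unsubtracted, per the file headers, which name Agilent Feature Extraction 9.5.1.1. Also per the file headers, that software made a log10 ratio after subtracting background and correcting dyes. A further table of log2 ratios was deposited by the authors. limma is named in the submitters' processing notes, and the normalization and filter behind that table are not given in the sources used here. Its rows were matched to spots by position in the files, where the columns correlated with DEHP over vehicle by 0.943 to 0.972. Its column medians were -0.00223 to 0.0116.

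Intensities were corrected by normexp (offset 50), normalised by loess within arrays, averaged per probe and signed as DEHP over vehicle. The 2 dye-swapped arrays of a mouse pair were averaged, leaving 4 values. A probe entered the test when 4 or more of the 8 DEHP channels, or of the 8 vehicle channels, were well above background. limma 3.58.1 in R 4.3.3 (data.table version 1.17.8) fitted an intercept. Its moderated tests were 2-sided, with Benjamini-Hochberg adjustment and a threshold of 0.05, and the fit was tested on simulated data. Each gene is given by its brightest kept probe. Levels per mouse are log2 intensities after loess and quantile normalization of average intensity between arrays (Aquantile). With the 1639 control spots of an array left out, 49.8% to 59.5% of spots lay well above background in a channel. Of all 45018 spots, 0 were saturated. The number of arrays limits the precision.

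Mouse pairs come from the arrays' labels. Symbols are those of the files. Positions are the array design's, in mm7. The member genes and the lists were chosen with earlier results of these data known. Values are given for the genes chosen by name, the 2 genes of each family and list with the smallest unadjusted p, and genes singled out by a pair, a probe or a dye orientation.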

Additional observations from a re-analysis of the deposited data

Results flagged for a closer look

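In 4 of the 39 genes, 1 pair stood apart from the other 3 by more than Dixon's 95% critical value for 4 values, beside 6.1% of all genes tested. By chance about 1 group in 20 would be flagged. Dnahc1, an inner arm dynein heavy chain, was at 0.18 in pair 4, against -0.19 to -0.14 in pairs 1, 2 and 3. Dnali1, a light intermediate chain, was at -0.56 in pair 4, against 0.012 to 0.10 in the others. Fscn3, the testis fascin, was at -0.68 in pair 1, against 0.21 to 0.34 in the others. Odf3l1, a relative of an outer dense fibre gene, was at -0.18 in pair 3, against 0.064 to 0.11 in the others.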

How the results depend on the processing

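Over the 16 other settings, limma called 0 of all probes at an adjusted p under 0.05 in each (smallest adjusted p from 0.0615 to 0.999), and 312 to 2455 genes had an unadjusted p under 0.05. The flagellum gene median stayed below 0 in all of them except median centring, where it was 0.051. With median centring 27 of 39 genes were above 0, beside 57.0% of all genes. With the authors' deposited log2 ratios, which hold 25 of the genes, 7 were above 0, beside 51.3% of all genes. At an unadjusted p under 0.05 there were then 0 of 25, beside 4.48% of all genes. With the 8 arrays as separate values and no block for the mouse pair, 6 genes had an unadjusted p under 0.05. The share of all genes was then 14.5%. With DEHP in Cy5 alone, 6 genes had an unadjusted p under 0.05, beside 8.25% of all genes. Leaving out 1 pair at a time gave a median of -0.085 to -0.021. It left 14 to 16 genes above 0, beside 49.3% to 51.0% of all genes. At an unadjusted p under 0.05 stood 2 to 10 genes, beside 2.42% to 9.51% of all genes. The 10 were reached without pair 4, where the share of all genes was 9.51%. Ccdc19 was below 0 and Spata3 above 0 in every setting that held them, while Tekt2 turned to 0.039 with DEHP in Cy3 alone and Odf2 to 0.14 with DEHP in Cy5 alone. The causes of these shifts were not tested. With 4 pairs and a median SD of 0.28, small differences could not be detected.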
